A study of Mus musculus with 6 samples.

Results

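The genes described here are 26 genes of cholesterol synthesis and of the SREBP pathway that controls it, chosen by symbol from a list in pathway order and matched on the gene symbols of a count table of 54532 mouse genes. They comprise 18 enzymes that make cholesterol from acetyl-CoA, 5 SREBP regulators and 3 genes of sterol transport. All 26 were found, and all 26 passed the filter on low counts, which left 12269 genes to test. The 26 do not hold every gene of the pathway. RNA was sequenced from BV2 cells, an immortalised line of mouse microglia, in 3 libraries labelled SMEK1 knockdown and 3 labelled WT. SMEK1 is a regulatory subunit of protein phosphatase 4, and its mouse gene is Ppp4r3a. All cultures were grown in the same serum-containing medium, per the labels. The labels do not give the means of knockdown, whether WT cells carried a control construct, or whether each library was a separate culture or clone, and the design text counts both sets of libraries as knockdown derivatives of BV2. The p-values therefore measure only the spread between these libraries, and other differences between the cultures cannot be told apart from the knockdown.

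Cells make cholesterol in the cytosol and the endoplasmic reticulum. The mevalonate enzymes turn acetyl-CoA into isoprene units, further enzymes join these into squalene, and the remaining enzymes close the rings of squalene and trim the product to cholesterol. SREBP-2 and SREBP-1, encoded by Srebf2 and Srebf1, are membrane-bound transcription factors of these genes and of lipid genes more widely. When sterols are low, Scap escorts them to the Golgi, where proteases release their active part. When sterols are high, the Insig proteins hold Scap in the endoplasmic reticulum. In microglia, cholesterol is made for the cell's own membranes and is also taken up with debris.

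The knockdown and WT libraries held 18627425 to 21131557 and 18036591 to 18708438 counts, so that 1 count was worth 0.0444 to 0.0597 CPM (counts per 1e6 counts). Levels are given as CPM scaled between libraries by TMM, group values as the mean ± SD over 3 libraries, and changes as log2 of knockdown over WT with a standard error (SE). The threshold for a call was an adjusted p under 0.05 in edgeR's quasi-likelihood test over all 12269 genes, which also gave every adjusted p with no other tool named. Libraries are given in the order A, B and C. Ppp4r3a had 2.51, 5.42 and 4.25 CPM in the knockdown cells, against 18.1, 13.5 and 15.3 CPM in WT, a log2 change of -1.94 (SE 0.24, adjusted p = 8.22e-05). Of 12 microglia and macrophage markers 10 were tested, 3 higher and 4 lower, with summed levels of 3637 to 4086 CPM in knockdown libraries and 3939 to 4472 CPM in WT. Cx3cr1 and P2ry12, a pair of defining microglial markers, did not pass the filter on low counts, at 0.361 to 0.575 and 0 CPM in knockdown cells and 0.0597 to 0.378 and 0 to 0.108 CPM in WT. The neuron markers summed to 0.800 to 1.81 CPM in knockdown cells and 0.418 to 0.706 CPM in WT, with 3 of 5 at 0 in every library. Tubb3, the only neuron marker tested, had a log2 change of 1.14 (SE 0.41, adjusted p = 0.0449), a call lost when any library other than knockdown B was left out. Astrocyte and oligodendrocyte markers reached at most 0.533 and 0.627 CPM in knockdown cells and 0.477 and 0.298 CPM in WT, with 3 of 5 and 2 of 5 at 0. Fibroblast markers stayed at or under 0.105 CPM in knockdown cells and 0.0540 CPM in WT, with 4 of 5 at 0. The part of these marker differences in the results below was not tested.

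Promoters are shown for the 2 genes with the largest rise, Hsd17b7 and Cyp51, and the 2 genes called lower, Srebf1 and Srebf2, as the sequence on which SREBPs and their partners can act. Hmgcs1 was added after its sequence was seen, because it alone held the sterol element searched for. Each runs from 250 bases before to 50 bases after the start of transcription, 5′ to 3′ on the gene's strand, from RefSeq (GRCm38.p6). Capitals mark TCACNCCAC (a sterol regulatory element), ATTGG (NF-Y), GGGCGG (Sp1) and CACGTG (an E-box), searched on both strands, so the reverse complements are also in capitals. Adjoining or overlapping matches merge into 1 run of capitals.
Hsd17b7, chr1:169969156-169969455, minus strand: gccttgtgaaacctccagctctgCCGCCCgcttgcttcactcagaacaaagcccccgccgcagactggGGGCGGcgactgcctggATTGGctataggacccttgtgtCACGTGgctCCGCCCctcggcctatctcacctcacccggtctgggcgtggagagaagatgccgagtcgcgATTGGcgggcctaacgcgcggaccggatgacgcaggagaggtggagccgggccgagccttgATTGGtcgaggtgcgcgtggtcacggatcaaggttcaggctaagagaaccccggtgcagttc
Cyp51, chr5:4104648-4104947, minus strand: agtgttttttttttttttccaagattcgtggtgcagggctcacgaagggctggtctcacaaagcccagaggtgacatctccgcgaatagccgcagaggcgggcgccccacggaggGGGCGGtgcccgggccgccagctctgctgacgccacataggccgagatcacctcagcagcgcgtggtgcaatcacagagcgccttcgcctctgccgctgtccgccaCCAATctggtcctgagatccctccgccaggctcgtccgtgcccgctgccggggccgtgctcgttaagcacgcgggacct
Srebf1, the outermost of 3 listed starts, chr11:60222532-60222831, minus strand: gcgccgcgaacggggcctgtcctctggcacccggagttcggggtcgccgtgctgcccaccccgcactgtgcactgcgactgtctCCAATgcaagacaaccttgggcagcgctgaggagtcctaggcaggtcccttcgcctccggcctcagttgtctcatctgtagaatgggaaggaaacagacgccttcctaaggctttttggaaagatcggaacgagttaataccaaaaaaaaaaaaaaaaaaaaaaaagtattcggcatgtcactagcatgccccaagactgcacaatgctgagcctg
Srebf2, chr15:82147019-82147318, plus strand: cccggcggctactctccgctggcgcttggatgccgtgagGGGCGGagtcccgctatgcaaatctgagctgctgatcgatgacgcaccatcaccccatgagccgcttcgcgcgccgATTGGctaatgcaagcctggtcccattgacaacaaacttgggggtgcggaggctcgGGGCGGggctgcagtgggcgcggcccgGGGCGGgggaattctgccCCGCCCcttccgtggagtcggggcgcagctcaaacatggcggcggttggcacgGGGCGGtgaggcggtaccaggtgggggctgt
Hmgcs1, chr13:119690101-119690400, plus strand: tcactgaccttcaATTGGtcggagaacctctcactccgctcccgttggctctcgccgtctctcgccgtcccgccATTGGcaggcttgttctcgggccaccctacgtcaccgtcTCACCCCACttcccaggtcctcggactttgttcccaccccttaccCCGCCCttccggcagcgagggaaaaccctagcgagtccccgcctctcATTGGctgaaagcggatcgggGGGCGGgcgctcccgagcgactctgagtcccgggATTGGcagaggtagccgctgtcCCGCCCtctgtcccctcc

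Promoters were found for 21 of the 26 genes, 29 in all. The entries missing were Fdps, Fdft1, Sqle, Stard4 and Npc1. The NF-Y letters ATTGG occurred in a promoter of 19 of the 21 genes (90.5%) and in 20 of the 29 promoters (69.0%), where 37.4% of all 32851 promoters of this length held them. All 13 genes called higher that had a promoter entry held ATTGG in at least 1 promoter. So did Srebf1 and Srebf2, which were called lower, and Hmgcs1, Idi1, Ebp and Npc2, which were not called. Of the genes called higher, Dhcr7, Insig2 and Pmvk also had listed starts with 0 ATTGG matches. Among all 8967 tested genes with a promoter the share was 43.1%, and it was 43.0% of the genes called higher, 41.9% of those called lower and 43.6% of those not called. Sp1 letters were found for 20 of 21 genes (95.2%) and in 24 of 29 promoters (82.8%), beside 69.4% of tested genes and 35.7% of all promoters. The E-box was found for 5 of 21 genes (23.8%) and in 6 of 29 promoters (20.7%). It was held by 12.2% of tested genes and 7.15% of all promoters. The sterol element TCACNCCAC was found only for Hmgcs1, 1 of 21 genes (4.76%) and 1 of 29 promoters (3.45%). It was held by 1.38% of tested genes and 1.24% of all promoters. Only these exact letters were searched. Sterol elements that differ from them were not looked for, so the other promoters cannot be said to lack one. Mvk held 5 ATTGG matches, and Hmgcs1 and Nsdhl held 4 each. Hsd17b7, Msmo1 and 1 Insig2 start held 3 each, and Cyp51 held 1. The Srebf1 starts differed. The start shown held 1 ATTGG and 0 Sp1 matches. Of those not shown, 1 held 1 ATTGG and 2 Sp1 matches, and the other 0 ATTGG and 3 Sp1 matches. These matches are letters in a window and were not tested against expression.

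Genes of cholesterol synthesis were mostly higher in SMEK1 knockdown cells, and the genes of both SREBPs were lower. The call of Srebf2 was lost in 9 of 17 alternative analyses, and that of Srebf1 in 0. Of the 26 genes 18 were called in either direction, where 40.1% of all genes tested were called. Higher calls numbered 16 (61.5%), against 20.5% of all genes tested, and lower calls numbered 2 (7.69%), against 19.6%. At least 2-fold rises were found for 6 genes (23.1%), against 5.13% of genes tested. Every knockdown library lay above every WT library for 17 genes (65.4%), against 26.7% of genes tested, and below for 2, and the ranges overlapped for 7. The median log2 change of the 26 was 0.40, beside 0.01 over all genes tested. With library totals in place of TMM these medians were 0.56 and 0.17, with 17 genes higher and 1 lower, and 71.3% of all calls were higher, against 51.1% with TMM. The genes were chosen with earlier results of these data known, so these counts are descriptions. In bulk RNA, a change in the share of cells and a change in RNA per cell cannot be told apart.

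**Figure D1:**
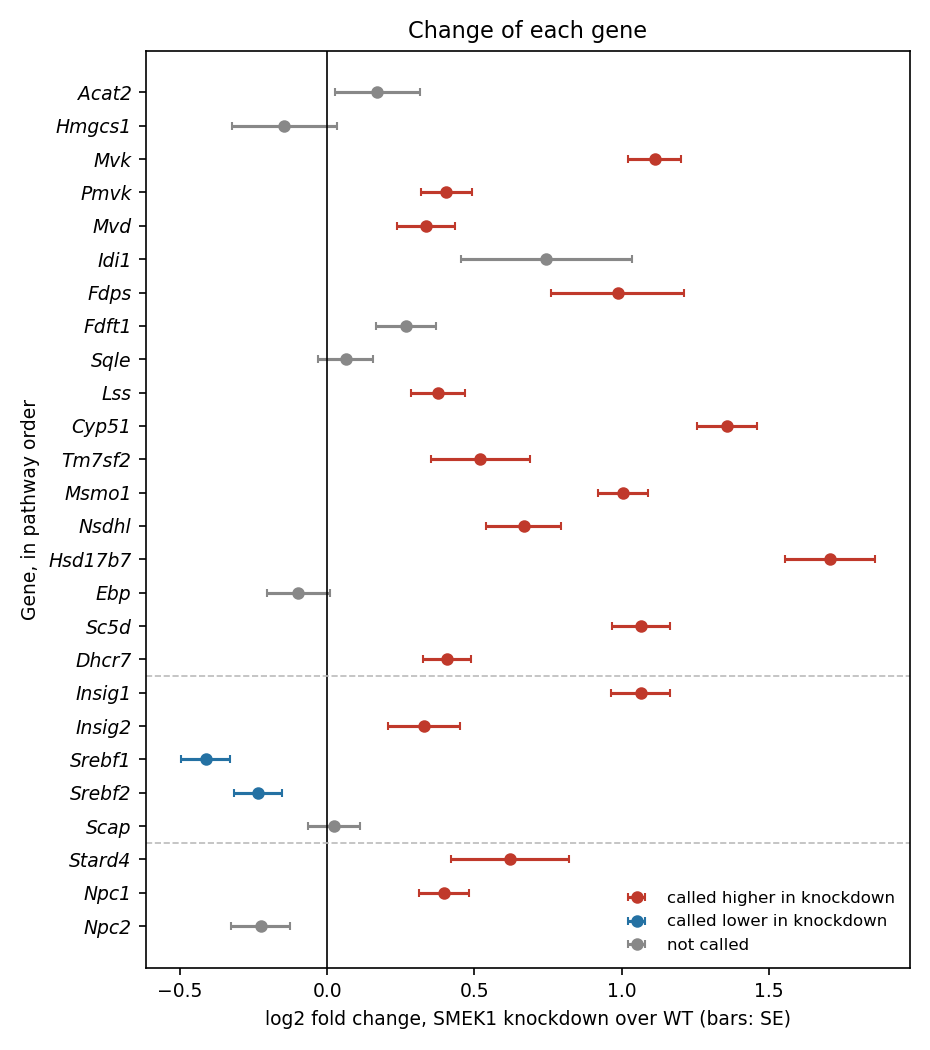
Log2 fold change of each of the 26 genes, SMEK1 knockdown over WT, in pathway order from top to bottom, with bars of 1 SE. Points are coloured by the call at an adjusted p under 0.05, and dashed lines set off the 18 enzymes, the 5 regulators and the 3 transport genes. The values span -0.41 for Srebf1 to 1.71 for Hsd17b7, and 21 of 26 are positive.

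The 18 enzymes held 12 of the higher calls (66.7%, against 20.5% of all genes tested) and 0 lower calls (against 19.6%). Their median log2 change was 0.46. Their summed level was 1038, 985 and 976 CPM in the knockdown cells, against 638, 713 and 682 CPM in WT. Without Msmo1, the largest part of that sum in the knockdown, the sums were 863, 812 and 795 CPM in knockdown cells, against 559, 618 and 592 CPM in WT. In both forms every knockdown library lay above every WT library. The ranges of 13 enzymes did not overlap, all with the knockdown higher (72.2%, against 26.7% of genes tested). At least 2-fold rises were found for 5 enzymes (27.8%, against 5.13%). Of the 16 genes called higher, 6 were highest in knockdown A, 7 in knockdown B and 3 in knockdown C.

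**Figure D2:**
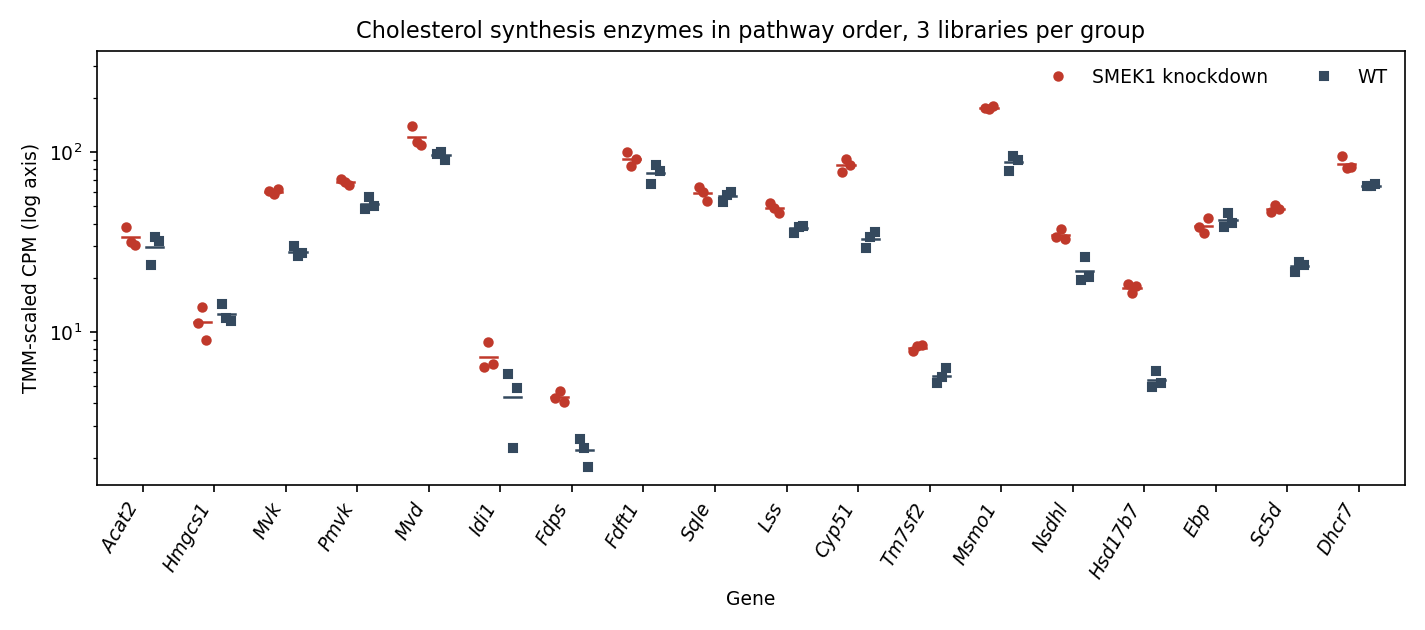
TMM-scaled CPM of the 18 synthesis enzymes in each of 3 SMEK1 knockdown libraries (red circles) and 3 WT libraries (dark squares), in pathway order from left to right on a log axis, with lines at the group means. For 13 enzymes the knockdown libraries all lie above the WT libraries, and the gap is widest for Hsd17b7, at 16.4 to 18.4 CPM in knockdown cells and 4.91 to 6.09 CPM in WT.

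Among the 5 mevalonate enzymes 3 rose and 0 fell, with a median of 0.33, too few genes to set against the 20.5% higher of all genes tested. Mvk, mevalonate kinase (ENSMUSG00000041939, chromosome 5 from 114444269 to 114460591, plus strand, GRCm38), had 60.4, 58.2 and 62.1 CPM in the knockdown cells, against 29.9, 26.4 and 27.3 CPM in WT. The libraries of a group lay close together, and the means were 60.2 ± 1.94 CPM in knockdown cells and 27.8 ± 1.83 CPM in WT (SD, n = 3 each). The log2 change of Mvk was 1.11 (SE 0.09, adjusted p = 3.34e-06), higher than that of 95.5% of tested genes. The kinase and the decarboxylase that follow it moved less. Pmvk, phosphomevalonate kinase, had 70.3, 68.4 and 65.2 CPM in knockdown cells, against 47.9, 56.2 and 50.03 CPM in WT, a log2 change of 0.40 (SE 0.09, adjusted p = 0.00328). Mvd, which makes isopentenyl diphosphate, had 140, 114 and 109 CPM in knockdown cells, against 97.6, 99.8 and 90.3 CPM in WT, a log2 change of 0.33 (SE 0.10, adjusted p = 0.0180). Knockdown A was the high library for Mvd, and the call was lost without WT C (adjusted p = 0.0910). It was also lost with limma on log2(FPKM + 1) (adjusted p = 0.0516).

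The mevalonate enzymes at the start of the pathway were not called. Acat2, the thiolase that joins acetyl-CoA units, had 38.5, 31.6 and 30.4 CPM in knockdown cells, against 23.4, 33.8 and 32.1 CPM in WT (log2 change 0.17, SE 0.15, adjusted p = 0.376). Hmgcs1, HMG-CoA synthase, had 11.2, 13.8 and 8.99 CPM in knockdown cells, against 14.2, 11.9 and 11.5 CPM in WT (log2 change -0.15, SE 0.18, adjusted p = 0.545). For both genes the ranges of the groups overlapped. The sign for Hmgcs1 turned with library totals in place of TMM (0.01).

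The squalene-forming enzymes rose in 1 of 3 cases, with 0 falls and a median of 0.74, again too few to set against that 20.5% share. Fdps, farnesyl diphosphate synthase, had 4.28, 4.71 and 4.07 CPM in knockdown cells, against 2.54, 2.27 and 1.77 CPM in WT, a log2 change of 0.99 (SE 0.23, adjusted p = 0.00456). The groups did not overlap, at a level of only a few CPM. Idi1, the isomerase of isopentenyl diphosphate, had 6.38, 8.80 and 6.64 CPM in knockdown cells, against 5.83, 2.27 and 4.89 CPM in WT. Its ranges did not overlap either, but WT B was far below the other WT libraries, and the log2 change of 0.74 was not called (SE 0.29, adjusted p = 0.0593). The call was made without WT A (adjusted p = 0.0185), with a filter of 1 count in any library (0.00247), with DESeq2 (0.0430) and with limma-voom (0.0429). Fdft1, squalene synthase, had 100, 84.1 and 90.8 CPM in knockdown cells, against 66.2, 84.2 and 78.1 CPM in WT. Knockdown B and WT B were almost level, and the log2 change of 0.27 was not called (SE 0.10, adjusted p = 0.0539). It was called without knockdown B (adjusted p = 0.0145) or WT B (0.0282), and with library totals (0.00159), upper quartile (0.0180) and either other filter on low counts (0.00584 and 0.0491).

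Counts of several of these genes may be split with similar or overlapping sequence, as the use of strand and of reads with several matches is not given. Of the 50-base stretches in GENCODE M21 transcripts of Fdps, 64.1% also occur in transcripts of other genes, most of them in Gm43738. That gene lies on the same strand, overlaps Fdps by 7512 bases and had 0 counts. For Acat2 the share was 40.7%, all in Acat3, which had 11 counts over the 6 libraries, and for Idi1 it was 28.6%. Fdft1 shared 30.7%, most of it with Ctsb, a lysosomal protease gene on the opposite strand whose interval overlaps it by 774 bases. Ctsb had 587981 counts over the 6 libraries, against 9786 for Fdft1, and a log2 change of -0.14 (SE 0.10, adjusted p = 0.319). The part of this sharing in the values of Fdps, Acat2, Idi1 and Fdft1 was not tested. Of the 26 genes 13 shared no such stretch with another gene, among them Mvk, Msmo1 and Hsd17b7.

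Sterol enzymes after squalene rose in 8 of 10 cases, with 0 falls, beside 20.5% higher and 19.6% lower of all genes tested. Their median was 0.59. Hsd17b7, the ketoreductase of the complex that removes methyl groups from the sterol ring (ENSMUSG00000026675, chromosome 1 from 169949535 to 169969241, minus strand), had 18.4, 16.4 and 18.02 CPM in the knockdown cells, against 4.91, 6.09 and 5.18 CPM in WT. With means of 17.6 ± 1.04 CPM in knockdown cells and 5.39 ± 0.616 CPM in WT (SD, n = 3 each), its log2 change of 1.71 (SE 0.15, adjusted p = 6.90e-06) was the largest of the 26. Cyp51, the lanosterol demethylase (ENSMUSG00000001467, chromosome 5 from 4081145 to 4104746, minus strand), had 77.3, 91.1 and 84.4 CPM in knockdown cells, against 29.3, 33.5 and 36.0 CPM in WT. The lowest knockdown library thus held over 2 times the CPM of the highest WT library, and the log2 change was 1.36 (SE 0.10, adjusted p = 1.63e-06). Sc5d, a sterol desaturase, had 46.6, 50.5 and 48.2 CPM in knockdown cells, against 21.4, 24.5 and 23.4 CPM in WT, a log2 change of 1.07 (SE 0.10, adjusted p = 7.70e-06). Msmo1, the methylsterol oxidase of the same complex as Hsd17b7, had 175, 172 and 181 CPM in knockdown cells, against 78.7, 94.4 and 90.3 CPM in WT, a log2 change of 1.00 (SE 0.08, adjusted p = 4.08e-06). Hsd17b7, Cyp51, Sc5d and Msmo1 each rose at least 2-fold, with no overlap between groups.

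Smaller rises were found at other steps of the same stretch. Nsdhl, the dehydrogenase of the demethylating complex, had 33.7, 37.5 and 32.9 CPM in knockdown cells, against 19.4, 25.9 and 20.2 CPM in WT (log2 change 0.67, SE 0.13, adjusted p = 0.00144). All members of this complex described here, Msmo1, Nsdhl and Hsd17b7, were thus higher. Dhcr7, which reduces the last precursor on one branch to cholesterol, had 94.5, 81.3 and 82.9 CPM in knockdown cells, against 64.6, 64.6 and 66.0 CPM in WT (log2 change 0.41, SE 0.08, adjusted p = 0.00223). Lss, which closes the sterol rings, had 51.8, 48.6 and 45.8 CPM in knockdown cells, against 35.6, 38.0 and 39.0 CPM in WT (log2 change 0.38, SE 0.09, adjusted p = 0.00658). For Nsdhl, Dhcr7 and Lss the ranges did not overlap. Tm7sf2, a sterol reductase, had 7.79, 8.31 and 8.40 CPM in knockdown cells, against 5.18, 5.61 and 6.30 CPM in WT (log2 change 0.52, SE 0.17, adjusted p = 0.0273). Leaving out knockdown C ended that call (adjusted p = 0.0909), as did leaving out WT A (0.0863) or WT B (0.0705). Tm7sf2 shared 19.5% of its stretches with Vps51, a same-strand gene of 1155 counts and a log2 change of -0.42 (SE 0.18, adjusted p = 0.0763).

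Sqle and Ebp, the remaining enzymes, were not called. Sqle, squalene epoxidase, a control point of the pathway, had 64.1, 59.6 and 53.6 CPM in knockdown cells, against 52.5, 57.7 and 59.5 CPM in WT (log2 change 0.06, SE 0.09, adjusted p = 0.620). Ebp, the sterol isomerase, had 38.2, 35.6 and 42.7 CPM in knockdown cells, against 38.4, 45.8 and 40.5 CPM in WT (log2 change -0.10, SE 0.11, adjusted p = 0.489). The groups overlapped for both, and the sign for Ebp turned with library totals (0.06). A missed threshold does not show that these genes were equal in the groups.

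The SREBP regulators split, with 2 higher, 2 lower and a median of 0.02. With 5 genes these counts cannot be read against the 20.5% higher and 19.6% lower of all genes tested. Insig1, which retains Scap when sterols are high and is itself a target of SREBPs (ENSMUSG00000045294, chromosome 5 from 28071363 to 28078662, plus strand), had 61.1, 59.9 and 57.6 CPM in knockdown cells, against 27.3, 32.2 and 25.9 CPM in WT. The means were 59.5 ± 1.77 CPM in knockdown cells and 28.5 ± 3.33 CPM in WT (SD, n = 3 each), and the log2 change was 1.06 (SE 0.10, adjusted p = 1.08e-05). Insig2, its paralogue, moved less and rested on the full set of libraries. It had 19.0, 20.0 and 18.1 CPM in knockdown cells, against 14.3, 16.2 and 15.1 CPM in WT, a log2 change of 0.33 (SE 0.12, adjusted p = 0.0499). Leaving out any library ended that call, with adjusted p of 0.0563, 0.0911 and 0.0852 without knockdown A, B and C, and 0.133, 0.0686 and 0.142 without WT A, B and C. It was also lost with DESeq2 (adjusted p = 0.0833) and DESeq2's size factors in edgeR (0.0557).

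Srebf1 and Srebf2, the genes of the SREBPs themselves, were lower in the knockdown. Srebf1 (ENSMUSG00000020538, chromosome 11 from 60199089 to 60222581, minus strand) had 152, 145 and 133 CPM in knockdown cells, against 206, 187 and 180 CPM in WT, and fell by 0.41 in log2 units (SE 0.08, adjusted p = 0.00221). The counts are per gene, so the isoforms SREBP-1a and SREBP-1c cannot be told apart. Srebf2 (ENSMUSG00000022463, chromosome 15 from 82147181 to 82205379, plus strand) had 291, 252 and 255 CPM in knockdown cells, against 310, 309 and 321 CPM in WT, and fell by 0.24 in log2 units (SE 0.08, adjusted p = 0.0367). The groups did not overlap for either gene, though knockdown A stood near the WT libraries for Srebf2. The Srebf2 call was lost without knockdown B (adjusted p = 0.133), knockdown C (0.172), WT B (0.0620) or WT C (0.139), and with library totals (log2 change -0.08, adjusted p = 0.351). Scap, the escort protein, had 61.8, 57.4 and 54.0 CPM in knockdown cells, against 60.7, 54.8 and 55.0 CPM in WT (log2 change 0.02, SE 0.09, adjusted p = 0.858). These are levels of RNA, and the cleavage of SREBPs was not measured.

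**Figure D3:**
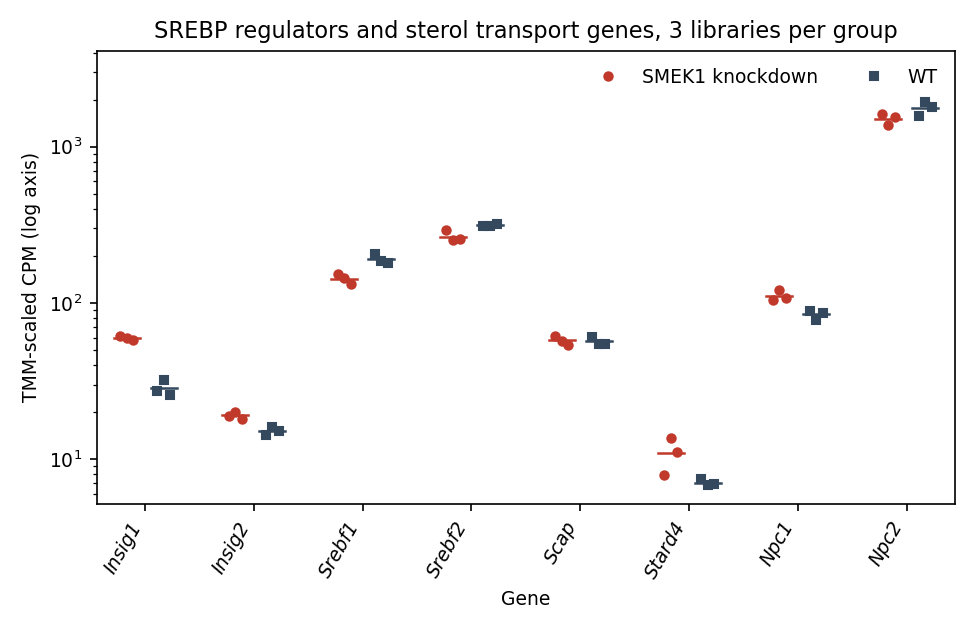
TMM-scaled CPM of the 5 SREBP regulators and 3 sterol transport genes in each of 3 SMEK1 knockdown libraries (red circles) and 3 WT libraries (dark squares), on a log axis with lines at the group means. Insig1 is at 57.6 to 61.1 CPM in knockdown cells and 25.9 to 32.2 CPM in WT, whereas Srebf1 is at 133 to 152 CPM in knockdown cells and 180 to 206 CPM in WT.

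Of the 3 transport genes 2 rose and 0 fell, too few to set against the 20.5% higher and 19.6% lower of all genes tested. Npc1, which moves cholesterol out of lysosomes, had 105, 120 and 108 CPM in knockdown cells, against 88.8, 78.2 and 86.3 CPM in WT (log2 change 0.40, SE 0.08, adjusted p = 0.00314). Npc2, the soluble protein that hands cholesterol to Npc1, had 1616, 1378 and 1541 CPM in knockdown cells, against 1572, 1938 and 1796 CPM in WT (log2 change -0.23, SE 0.10, adjusted p = 0.0950). The partners thus carried opposite signs, and of 17 alternatives Npc2 was called in 1, without WT A (log2 change -0.31, adjusted p = 0.0241). Stard4, a cytosolic sterol carrier, had 7.94, 13.6 and 11.1 CPM in knockdown cells, against 7.50, 6.86 and 6.89 CPM in WT (log2 change 0.62, SE 0.20, adjusted p = 0.0273). Knockdown A stood just above WT, and the Stard4 call was lost without knockdown B (adjusted p = 0.0939), knockdown C (0.0777), WT B (0.0650) or WT C (0.0877).

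Levels can be set against each other per length of gene, as CPM per kilobase. On that scale Npc2 was the highest of the 26 in both groups, at 278 CPM per kilobase in the knockdown and 325 in WT, followed by Mvd, at 65.1 in the knockdown and 51.6 in WT. Fdps was the lowest, at 1.03 CPM per kilobase in the knockdown and 0.520 in WT. Its interval overlaps the same-strand gene Gm43738 by 7512 bases. Tm7sf2, at rank 25 in both groups, overlaps the same-strand gene Vps51 by 9356 bases. As counts may be split or lost in such overlaps, both levels may be too low, which was not tested. Cyp51 stood at rank 10 of 26 in the knockdown, with 19.1 CPM per kilobase, and at rank 17 in WT, with 7.45. Among the regulators Srebf2 was highest in both groups, at 37.0 CPM per kilobase in the knockdown and 43.6 in WT. The lengths are those deposited with the counts, and they can be longer than the protein-coding transcripts. Msmo1 has a length of 6144 bases, with 2362 different 50-base stretches in its protein-coding transcripts. For Mvd these values are 1859 and 1707. The ranks may differ with other lengths, which was not tested. Ranks of neighbouring genes in this order were not tested either.

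Genes near each member were examined, since stretches of chromosomes can differ between cultures of a cell line. Around Sqle on chromosome 15, the 29 other tested genes within 5 Mb had a median log2 change of -0.50, and 17 were called lower. Around Fdft1 on chromosome 14 the median of 50 genes was -0.36, with 22 lower, and around Tm7sf2 on chromosome 19 the median of 181 genes was -0.21, with 74 lower. Sqle, Fdft1 and Tm7sf2 thus stood above neighbours that were mostly on the lower side, by 0.57, 0.63 and 0.73 on the log2 scale. Around Cyp51 and Mvk on chromosome 5 the medians were 0.18 and 0.17, and both genes lay further above them, by 1.18 and 0.94. Srebf2 and Insig2, at -0.24 and 0.33, stood closer to their neighbours. The median of 128 genes around Srebf2 was -0.10, with 40 lower and 16 higher. That of 18 genes around Insig2 was 0.14, with 7 higher and 1 lower. Of the 18 enzymes 17 had a log2 fold change above the median of their neighbours, all but Hmgcs1, with a median difference of 0.62. Of all 26 genes 21 did. For Ebp, whose log2 change was -0.10, the difference was only 0.0094. The share of all tested genes above their own neighbours was not taken, so these counts have no background and are descriptions. The part of such stretches in these values was not tested.

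**Figure D4:**
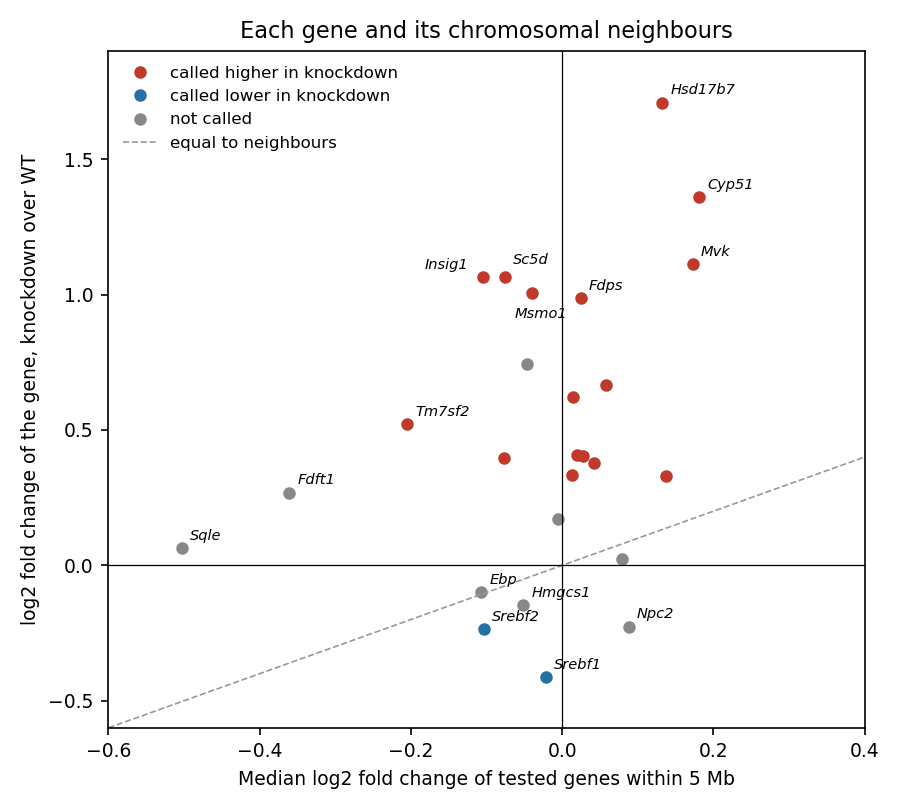
Log2 fold change of each of the 26 genes, SMEK1 knockdown over WT, on the vertical axis, against the median log2 change of the tested genes within 5 Mb on the horizontal axis, coloured by call. On the dashed line a gene equals its neighbours. The neighbour medians span -0.50 at Sqle to 0.18 at Cyp51, and 21 of 26 genes lie above the line.

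Further genes around the pathway were read from 5 lists of textbook genes. The median over all genes tested was 0.01. Of 10 tested genes of SREBP processing and turnover 6 rose and 1 fell, beside 20.5% higher and 19.6% lower of all genes tested, with a median of 0.34. Erlin1 and Erlin2, membrane proteins of sterol-driven protein turnover in the endoplasmic reticulum, had log2 fold changes of 0.53 (SE 0.11, adjusted p = 0.00244) and 0.48 (SE 0.09, adjusted p = 0.00160). The gene that fell was Rnf139, a ubiquitin ligase named after its value was seen, at -0.52 (SE 0.15, adjusted p = 0.0160). Its adjusted p was 0.0544 without knockdown C and 0.0569 without WT A. The 27 other tested genes within 5 Mb of Rnf139 had a median of -0.50, close to its own change, with 14 lower. Around Erlin1 and Erlin2 the medians were -0.13 and 0.06. The part of neighbouring stretches in these values was not tested. The rises numbered 3 without knockdown B, WT B or WT C, and Erlin1 and Erlin2 were called in each of the 17 alternatives run.

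Of 12 tested targets of SREBPs in fatty acid synthesis 1 rose and 2 fell, with a median of -0.14, where 20.5% of all genes tested were higher and 19.6% lower. Acss2, which makes acetyl-CoA from acetate, had 5.64, 4.22 and 6.23 CPM in knockdown cells, against 2.10, 2.69 and 2.47 CPM in WT (log2 change 1.15, SE 0.23, adjusted p = 0.00196). Fads1 and Scd2, desaturases of fatty acids, had log2 fold changes of -0.23 (SE 0.07, adjusted p = 0.0234) and -0.20 (SE 0.07, adjusted p = 0.0482). Neither was called when knockdown C, WT B or WT C was left out, and without knockdown B the call of Fads1 (adjusted p = 0.0725) and that of Scd2 (0.0762) ended. Scd2 was not called without WT A either (adjusted p = 0.0655), whereas Acss2 was called in all 15 alternatives that tested it. Without knockdown B the list had 2 rises and 1 fall. With library totals this list had 3 rises and 0 falls, and a median of 0.02. Tested genes within 5 Mb of Acss2, Fads1 and Scd2 had medians of 0.37, -0.25 and -0.12, and their part was not tested.

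The isoprenoid branch, which uses farnesyl diphosphate for protein prenylation, dolichol and ubiquinone, had 2 rises and 4 falls among 14 genes, with a median of 0.10, and 5 rises and 2 falls with library totals. These counts are near the shares of all genes tested, 20.5% higher and 19.6% lower, and are no result about the list. Nus1, a subunit of the enzyme that makes dolichol precursors, fell by 0.50 in log2 units (SE 0.10, adjusted p = 0.00146), to 45.2 ± 5.18 CPM in knockdown cells, against 64.0 ± 0.942 CPM in WT (SD, n = 3 each). Rabggtb and Rabggta, the subunits that prenylate Rab proteins, fell by 0.49 (SE 0.09, adjusted p = 0.00133) and by 0.32 (SE 0.10, adjusted p = 0.0218). Tested genes within 5 Mb of Nus1, Rabggtb and Rabggta had medians of -0.43, 0.02 and -0.37, and their part was not tested. The Rabggta call was lost without knockdown B (adjusted p = 0.0765), knockdown C (0.0990), WT B (0.0516) or WT C (0.0685). The 4 falls numbered 2 when any of these libraries was left out. The 2 rises numbered 0 with knockdown C or either of WT A and WT C left out, 1 without knockdown A or WT B, and 3 without knockdown B.

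Genes of sterol movement and storage had 5 rises and 3 falls among 20 tested, with a median of 0.05, and 9 rises and 3 falls with library totals. With 20.5% of all genes tested higher and 19.6% lower, the TMM counts of this list are near the background. Scarb1, a receptor for lipoproteins, had 293, 286 and 284 CPM in knockdown cells, against 146, 135 and 145 CPM in WT (log2 change 1.02, SE 0.07, adjusted p = 1.29e-06). Cyp27a1, which makes an oxysterol from cholesterol, had 62.6, 59.8 and 62.7 CPM in knockdown cells, against 82.9, 91.0 and 86.8 CPM in WT (log2 change -0.49, SE 0.08, adjusted p = 0.000365). Abcg1, an exporter of cholesterol, had 66.4, 60.6 and 64.3 CPM in knockdown cells, against 81.5, 82.2 and 84.4 CPM in WT (log2 change -0.38, SE 0.08, adjusted p = 0.00218). The groups did not overlap for Scarb1, Cyp27a1 or Abcg1, and all 3 were called in each alternative run. Tested genes within 5 Mb of Scarb1, Cyp27a1 and Abcg1 had medians of 0.27, 0.10 and -0.10, and their part was not tested. The rises in this list numbered 3 without knockdown C or WT A and 2 without WT C.

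Among 5 tested genes of proteins that pass electrons to the sterol enzymes there were 1 rise and 2 falls, with a median of -0.15. So few genes cannot be read against the 20.5% higher and 19.6% lower of all genes tested. Por, the reductase that serves Cyp51 and Sqle, had 372, 326 and 319 CPM in knockdown cells, against 275, 248 and 248 CPM in WT (log2 change 0.40, SE 0.09, adjusted p = 0.00335). Cyb5a, a cytochrome that serves Msmo1 and Sc5d, had 46.1, 34.1 and 43.1 CPM in knockdown cells, against 61.9, 79.0 and 78.3 CPM in WT (log2 change -0.83, SE 0.13, adjusted p = 0.000334). Pgrmc2, a haem-binding membrane protein, had 20.5, 17.9 and 15.9 CPM in knockdown cells, against 36.5, 37.8 and 36.8 CPM in WT (log2 change -1.03, SE 0.12, adjusted p = 3.54e-05). The groups did not overlap for Por, Cyb5a or Pgrmc2, and all 3 were called in each alternative run. Tested genes within 5 Mb of Por, Cyb5a and Pgrmc2 had medians of 0.30, 0.36 and 0.45, and their part was not tested. Pgrmc1, the paralogue of Pgrmc2, had 0 counts in every library.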

How the data were processed

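The deposited counts were whole numbers of reads per Ensembl mouse gene in the 6 libraries, and the authors also deposited FPKM values per gene, used here only in an alternative. Per the submitters' processing notes the build was GRCm38 (mm10). The aligner, the counter, the annotation release and the use of strand were not given in the sources used here. All 26 genes have their identifier in GENCODE M21, 24 at the same position. Libraries were grouped by the genotype in the labels.

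Counts were filtered with filterByExpr, scaled by TMM and tested with glmQLFit and glmQLFTest of edgeR 4.0.16 in R 4.3.3 without covariates, with Benjamini-Hochberg adjustment over 12269 genes. The SE is |log2 fold change| over the root of F, and can be too small at few counts. The script was tested on simulated data. Named genes are all 26 members, Ppp4r3a, and up to 3 called genes with the smallest adjusted p in each further list, of which 1 is not reported here. The members and lists were chosen with earlier results of these data known. Reads have no stated molecular identifiers, and library totals set the precision at low counts.

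Alternatives were edgeR with DESeq2's size factors, upper quartile or library totals, filters of 1 count in any library and 1 CPM in 3 libraries, DESeq2 1.42.0, limma 3.58.1 (voom, and log2 of FPKM + 1 or + 0.1 at a mean FPKM of at least 0.5), a replicate block, an adjusted p of 0.01, and leaving out each library.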

Additional observations from a re-analysis of the deposited data

How the results depend on the processing

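Over 17 alternatives the 26 genes gave 442 fold changes, of which 388 kept direction and side of the threshold, 37 lost the call, 11 gained it and 6 changed sign. Acat2, Mvk, Pmvk, Fdps, Sqle, Lss, Cyp51, Msmo1, Nsdhl, Hsd17b7, Sc5d, Dhcr7, Insig1, Srebf1 and Npc1 kept both in all 17. The sign changes were Hmgcs1 with library totals (0.0128) and, over single libraries left out, -0.29 to 0.000736, above 0 without knockdown C, Ebp with library totals (0.0623), and Scap, at -0.0232 to 0.0748 over single libraries left out and below 0 without knockdown A, WT B (-0.00638) or WT C (-0.00343), none of them called.

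Enzymes called higher numbered 10 to 14 over the alternatives and 0 were called lower in any, with 11 to 13 higher when single libraries were left out. Members called higher numbered 12 to 17 (13 to 15 without single libraries). Members called lower were 1 instead of 2 with library totals, limma on log2(FPKM + 1) or log2(FPKM + 0.1), the replicate block or an adjusted p under 0.01, and 1 to 3 when single libraries were left out. With library totals 3893 genes were called higher and 1568 lower. The median of all genes was then 0.17, a shift of 0.159, and 71.3% of calls were higher, against 51.1% with TMM. At an adjusted p under 0.01, 3181 genes were called, 1582 higher and 1599 lower. Leaving out single libraries gave 3703 to 4870 calls, 1869 to 2586 higher and 1782 to 2365 lower.

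Libraries of the same letter did not deviate together (correlations of -0.361, -0.326 and 0.00247). Between unlike letters the correlations ran from -0.129 to 0.412, the highest for knockdown B with WT A. With 3 libraries per group these values cannot show whether the letters mark a pairing. The replicate block gave 3326 calls, 1678 higher and 1648 lower, with 13 members higher, 1 lower, and 11 enzymes higher. The effect of depth on these calls was not tested.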
